A study of Homo sapiens with 6 samples.

Results

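The genes described here encode the enzymes of the methionine cycle and of transsulfuration, the route from methionine to cysteine. They are CBS, CTH, MAT1A, MAT2A, MAT2B, AHCY, MTR, MTRR, BHMT and CDO1, and all 10 were measured, among 11963 genes on the arrays. Every probe set annotated to them was taken, which gave 13 probe sets, each annotated to its gene alone. CTH, MAT2A and MTRR had more than 1 probe set, and the other 7 genes had 1. They were chosen by their place in the pathway around CBS, which was selected on its measured difference between these groups, so the values of the 10 genes are given as a description, with no p-value.

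RNA was taken from SUM44 and LCCTam, established lines of human breast carcinoma that are both labelled as invasive lobular and positive for estrogen and progesterone receptors. The 3 SUM44 cultures, labelled sensitive to tamoxifen, received 500 nM 4-hydroxytamoxifen (4HT), the active metabolite of the drug, for 24 hours. The 3 LCCTam cultures, labelled resistant, were kept without 4HT for 14 days. LCCTam is known as a derivative of SUM44 selected in 4HT, and each group is a single cell line, so line and drug exposure differed together and cannot be told apart. Levels are log2 RMA values, differences are LCCTam minus SUM44 on that scale with the standard error (SE) of a limma fit across all genes, and a gene is called where its adjusted p is under 0.05. The arrays count as biological replicates per the labels, and their number limits the precision.

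Methionine is activated by methionine adenosyltransferase to S-adenosylmethionine (SAM), the methyl donor of most methyltransferases. The product left after methyl transfer, S-adenosylhomocysteine, is split by AHCY into adenosine and homocysteine. Homocysteine is either methylated back to methionine, by MTR with folate and cobalamin or by BHMT with betaine, or passed through CBS and CTH to cysteine, which feeds glutathione, taurine and sulfide. The complete set of enzymes is characteristic of the liver, where MAT1A, BHMT and CDO1 are abundant, whereas most other tissues use MAT2A.

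Promoter sequences of the members are shown first, as a description, and printed for the 4 that were higher in LCCTam. RefSeq windows of assembly GRCh38.p14, from 250 bases before to 50 after a gene start, were found for 9 of the 10 genes (15 windows, 3 each for CBS and AHCY) and not for MTRR. The stretches below end at the base before a start, and capitals mark GGGCGG, the GC box, on either strand, and in CBS also TGACNNNGC, the core of the antioxidant response element. They are CBS (chr21:43076378-43076527, minus strand), CTH (chr1:70411058-70411267, plus strand), MAT2A (chr2:85539018-85539167, plus strand) and AHCY (chr20:34303356-34303505, minus strand).
CBS: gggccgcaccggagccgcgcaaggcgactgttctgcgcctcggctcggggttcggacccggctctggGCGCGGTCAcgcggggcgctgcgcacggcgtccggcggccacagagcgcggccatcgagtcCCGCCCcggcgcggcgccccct
CTH: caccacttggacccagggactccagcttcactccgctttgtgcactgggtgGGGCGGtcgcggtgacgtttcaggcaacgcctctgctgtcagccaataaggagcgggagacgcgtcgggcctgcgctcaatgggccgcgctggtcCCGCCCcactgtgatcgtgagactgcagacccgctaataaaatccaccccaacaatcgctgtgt
MAT2A: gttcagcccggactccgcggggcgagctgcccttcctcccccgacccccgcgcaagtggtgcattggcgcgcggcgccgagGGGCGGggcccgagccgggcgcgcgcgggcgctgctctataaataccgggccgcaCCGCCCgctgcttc
AHCY: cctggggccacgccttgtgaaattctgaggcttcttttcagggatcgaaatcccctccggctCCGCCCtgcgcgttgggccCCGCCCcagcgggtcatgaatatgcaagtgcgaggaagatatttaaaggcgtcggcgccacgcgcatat
A GC box was present in the windows of 7 of the 9 genes (CBS, CTH, MAT2A, MAT2B, AHCY, MTR and BHMT) and in those of 48.3% of all 27305 genes in the table. TGACNNNGC was found in CBS alone among the 9, against 16.1% of all genes, and CACGTG, the E-box, in none, against 8.77%.

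TGATGNAA, the core of the element through which C/EBP and ATF factors act in the amino acid response, was in none of the members' windows on either strand, and in those of 4.46% of all genes. For comparison it is shown in capitals in ASNS (chr7:97872449-97872496, minus strand) and CHAC1 (chr15:40953242-40953289, plus strand, where the match lies on the opposite strand), the nearest of all genes to CBS in profile.
ASNS: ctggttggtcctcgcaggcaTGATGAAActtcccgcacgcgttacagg
CHAC1: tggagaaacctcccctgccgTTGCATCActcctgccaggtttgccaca
Of 24 listed genes of the amino acid response, 19 had a window and 5 of these held TGATGNAA (ASNS, CHAC1, CEBPG, ATF3 and SLC3A2). DDIT4, another of the 5 genes nearest to CBS described below, had a window without it, and STK32B and PVALB were not looked up. These matches describe the letters of a short window and say nothing of factor binding or of sites elsewhere in a gene.

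Of the 10 enzymes, 4 were higher in LCCTam (CBS, CTH, MAT2A and AHCY), 1 was lower (MTRR) and 5 were not called (MAT1A, MAT2B, MTR, BHMT and CDO1). Over all 11963 genes, 15.8% were called, 9.18% higher and 6.6% lower. The groups did not overlap for the 5 called enzymes, 5 of 10, as they did not for 35.4% of all genes. The median difference of the 10 was 0.09, beside 0.08 for all genes, with a range of -1.15 to 2.97. Because CBS led to the choice of the list, nothing is read from these counts. Over all genes the count of calls fell from 1888 to between 751 and 864 without any 1 SUM44 array or LCCTam replicate 2 and was 4241 without LCCTam replicate 1. The called enzymes numbered 3 without SUM44 replicate 1 or 2 and 6 without LCCTam replicate 1.

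**Figure D1:**
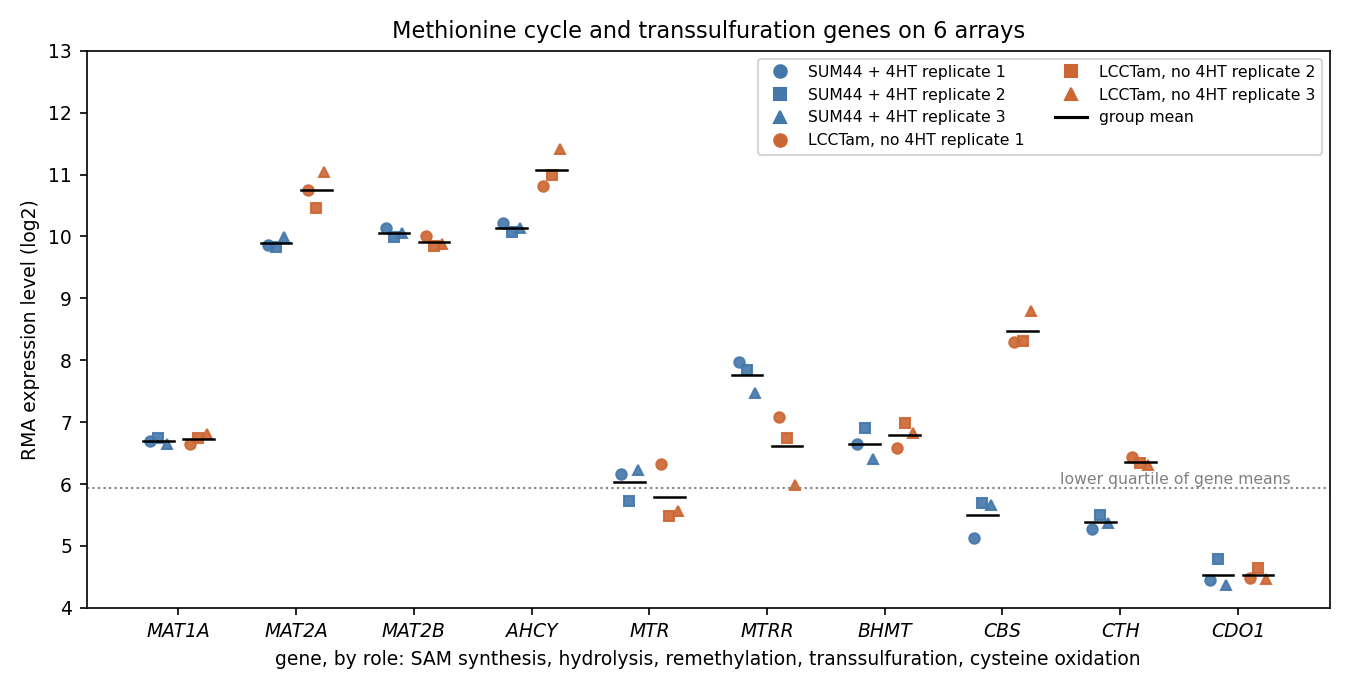
Levels of the 10 genes on each of the 6 arrays (log2 RMA value, brightest probe set of each gene), with replicates by symbol, group means as bars and the lower quartile of gene means, 5.93, as a dotted line. The LCCTam points lie above all SUM44 points for MAT2A, AHCY, CBS and CTH and below them for MTRR, and the groups overlap for the other 5 genes.

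CBS, which joins homocysteine and serine to cystathionine in the first step of transsulfuration, had the largest difference of the list. Its level was 5.14, 5.70 and 5.65 in SUM44 replicates 1, 2 and 3 and 8.29, 8.31 and 8.80 in LCCTam replicates 1, 2 and 3. All LCCTam arrays lay far above the highest SUM44 array, and replicates 1 of SUM44 and 3 of LCCTam stood apart within their groups. The means were 5.50 ± 0.31 (SD, n = 3) and 8.47 ± 0.29, a difference of 2.97 ± 0.20 SE or 7.84-fold, which ranked 22 by size among the 11963 genes. The SUM44 level was under 5.93, the lower quartile of mean levels over genes, and with no detection calls used here such a signal could not be told from background, so the fold is not exact. Leaving out an array in turn gave 2.79 to 3.07. A single probe set, 212816_s_at, measures this gene.

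CTH, cystathionine gamma-lyase, releases cysteine from cystathionine in the second step. Its brighter probe set, 206085_s_at, read 5.27, 5.50 and 5.38 in the SUM44 arrays and 6.43, 6.34 and 6.31 in the LCCTam arrays. The groups did not overlap, and the LCCTam arrays lay close together. The difference was 0.98 ± 0.11, or 1.97-fold. The other probe set, 217127_at, read 4.82, 4.71 and 4.75 in SUM44 and 6.49, 6.44 and 6.17 in LCCTam, a larger difference of 1.61 ± 0.12 or 3.05-fold. Both probe sets were dim in SUM44, below the lower quartile of gene means, so the size of the difference is uncertain between them.

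CDO1, cysteine dioxygenase, oxidises cysteine on the way to taurine and sulfate. It stood at 4.44, 4.79 and 4.37 in SUM44 and 4.49, 4.65 and 4.46 in LCCTam. The groups overlapped, with a difference of 0.00 ± 0.14 at a signal near the floor of the arrays, in the lowest 7.82% of gene means. The enzymes that make cysteine were thus higher in LCCTam on every array, and the probe set of the enzyme that oxidises it gave a dim signal with overlapping groups.

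**Figure D2:**
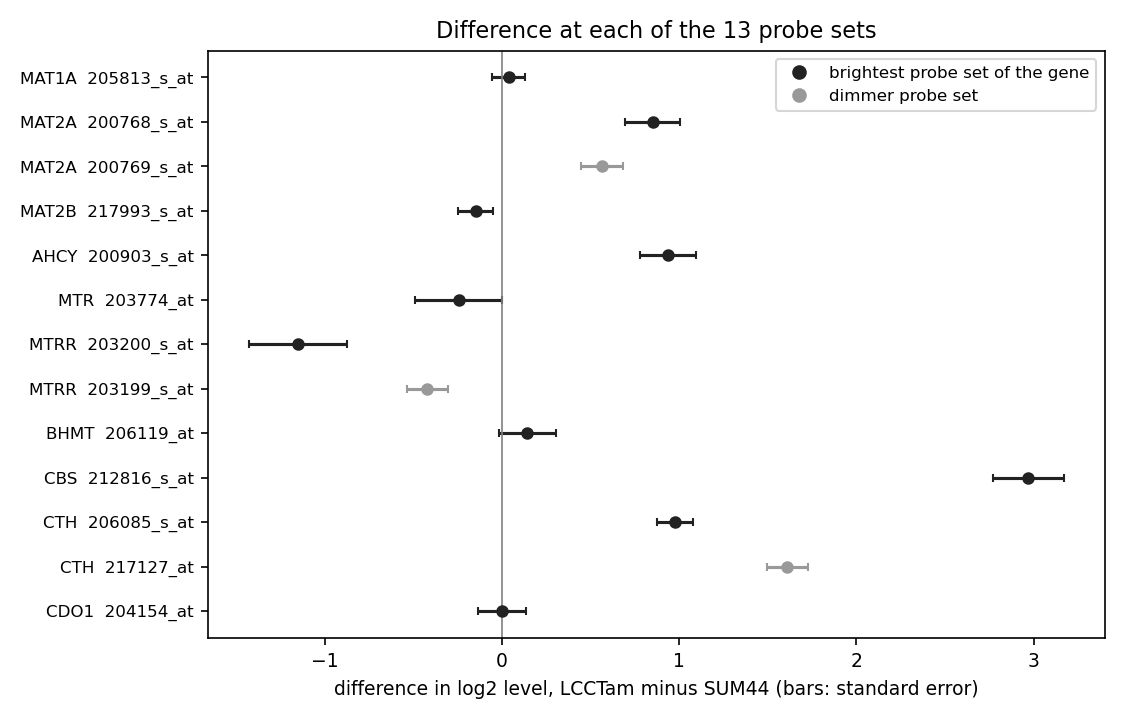
Difference in log2 level, LCCTam minus SUM44, at each of the 13 probe sets, with the standard error of the fit of all probe sets as bars. The brightest probe set of each gene is black and a dimmer one grey. CBS stands at 2.97, and the pairs of CTH (0.98 and 1.61), MAT2A (0.85 and 0.56) and MTRR (-1.15 and -0.42) have the same sign and differ in size.

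Of the genes of SAM synthesis, MAT2A was higher in LCCTam and the others were not called. MAT2A, the catalytic subunit of most tissues outside the liver, read 9.85, 9.83 and 9.998 in SUM44 and 10.74, 10.46 and 11.03 in LCCTam. Every LCCTam array was above every SUM44 array, by a mean of 0.85 ± 0.16 or 1.80-fold. Its other probe set, 200769_s_at, gave 0.56 ± 0.12, with 9.25, 9.29 and 9.56 in SUM44 and 9.99, 9.82 and 9.99 in LCCTam, again without overlap. The call of MAT2A was lost without SUM44 replicate 1 or 2, and leaving out an array in turn gave 0.71 to 0.99.

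MAT2B, the regulatory subunit that binds the MAT2A enzyme, was not called. It read 10.14, 9.99 and 10.05 in SUM44 and 9.9998, 9.85 and 9.88 in LCCTam. The groups overlapped at a bright signal (-0.15 ± 0.10). MAT1A, the liver isoenzyme, was at 6.70, 6.74 and 6.65 in SUM44 and 6.65, 6.74 and 6.80 in LCCTam. Its difference of 0.04 ± 0.10 turned to -0.06 after cyclic loess, and the groups overlapped. With no detection calls used, a level under that of the leukocyte marker CD3D (7.11 and 7.23) could not be told from background. A p that misses the threshold does not show equal levels for these genes.

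AHCY, the hydrolase that clears S-adenosylhomocysteine, was bright in both lines. It read 10.21, 10.07 and 10.13 in SUM44 and 10.82, 10.99 and 11.41 in LCCTam. The lowest LCCTam array lay above the highest SUM44 array, and replicate 3 was the highest. The difference was 0.94 ± 0.16 or 1.91-fold. Its relatives AHCYL1 and AHCYL2, which share its fold but regulate inositol phosphate receptors and transporters, were not called: AHCYL1 differed by -0.35 ± 0.12 (adjusted p = 0.0856) and AHCYL2 by 0.06 ± 0.10 (adjusted p = 0.716), a value that turned to -0.06 after cyclic loess. Of 4 probe sets of AHCYL1, 1 of the 3 dimmer ones had the opposite sign (0.06).

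Adenosine, the other product of AHCY, is removed by adenosine kinase (ADK) and adenosine deaminase (ADA). ADK read 10.12, 9.90 and 10.12 in SUM44 and 9.50, 9.35 and 8.49 in LCCTam. It fell by 0.94 ± 0.25 on the log2 scale (adjusted p = 0.0441), with no overlap and with LCCTam replicate 3 lowest, and was the 1 gene called (20%) among the 5 paralogs and adenosine genes. ADA differed by -0.29 ± 0.10 at a dim level of 6.30 and 6.01 (adjusted p = 0.106). The ADK call was lost after cyclic loess, with centred array medians and without any 1 SUM44 array or LCCTam replicate 2, in a range of adjusted p from 0.00444 to 0.15 over the alternatives, and its other probe set gave -0.32 and was not called. Without LCCTam replicate 1, 2 of the 5 genes were called.

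No remethylation enzyme was called higher. MTR, methionine synthase, read 6.16, 5.73 and 6.22 in SUM44 and 6.33, 5.48 and 5.56 in LCCTam. LCCTam replicate 1 was the highest of the 6 arrays while the other LCCTam arrays were the lowest, so the groups overlapped (-0.24 ± 0.24). Without LCCTam replicate 1 the difference was -0.51 and MTR was called lower. The LCCTam mean of MTR, 5.79, lay under the lower quartile of gene means, 5.93, so the size of its difference is not exact.

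MTRR, the reductase that returns the cobalamin of MTR to its active form, was the only called enzyme of the list that was lower in LCCTam. Its brighter probe set, 203200_s_at, read 7.97, 7.83 and 7.48 in SUM44 and 7.09, 6.75 and 5.98 in LCCTam. No LCCTam array reached the lowest SUM44 array, but the LCCTam arrays spread over more than 1 log2 unit. The difference was -1.15 ± 0.28, or 2.22-fold lower. It ranged from -1.39 without LCCTam replicate 1 to -0.84 without LCCTam replicate 3, and the call was lost without any 1 SUM44 array or LCCTam replicate 2. The other probe set, 203199_s_at, gave a smaller difference of -0.42 ± 0.11, with 6.95, 6.95 and 7.21 in SUM44 and 6.61, 6.51 and 6.71 in LCCTam, and was not called among all probe sets although the groups did not overlap.

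BHMT, which methylates homocysteine with betaine, read 6.64, 6.91 and 6.40 in SUM44 and 6.58, 6.98 and 6.82 in LCCTam. The groups overlapped (0.14 ± 0.16). Like MAT1A, BHMT read under CD3D in both lines, so its signal could not be told from background. Its paralog BHMT2, which uses S-methylmethionine, differed by -0.02 ± 0.10 (adjusted p = 0.923) at a dim level of 4.59 and 4.58.

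The LCCTam arrays lay farther apart than the SUM44 arrays over all genes. Correlations over genes were 0.9939 to 0.9947 within SUM44 and 0.9581 to 0.9873 within LCCTam, and the LCCTam array closest to SUM44 was replicate 1, at 0.9719 to 0.9735. Replicate 1 correlated less with LCCTam replicate 3 (0.9581) than with any SUM44 array. With SUM44, LCCTam replicate 2 correlated at 0.9511 to 0.9636 and replicate 3 at 0.9229 to 0.9413. The SD was larger in LCCTam than in SUM44 for 75.4% of all genes and for 6 of the 10 enzymes (MAT1A, MAT2A, MAT2B, AHCY, MTR and MTRR). Across the 6 arrays the correlation with CBS was 0.98 for CTH, 0.95 for MAT2A, 0.95 for AHCY and -0.91 for MTRR, and 0.02 for CDO1. These values mostly restate the difference between the groups, since the arrays fall into 2 sets. Without LCCTam replicate 1 the differences were 3.06 for CBS, 0.94 for CTH, 0.85 for MAT2A and 1.06 for AHCY.

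The luminal epithelial markers of the labelled cell type were bright, at group medians of 11.68 in SUM44 and 10.87 in LCCTam, although the probe set of CDH1, often lost in lobular tumours, read 6.52 and 6.73. ESR1 read 11.62 and 10.22, and 4 of the 8 markers were called lower (ESR1, KRT8, KRT18 and KRT19) and GATA3 higher. Over all genes 6.6% were called lower and 9.18% higher. None of the measured basal, fibroblast, leukocyte or endothelial markers (2, 6, 4 and 3 genes) was called, beside 15.8% of all genes. Of 6 hepatocyte markers, listed because MAT1A, BHMT and CDO1 are liver enzymes, TAT was called higher (0.40). It was dim, at 5.90 in SUM44, under the lower quartile of gene means, and 6.30 in LCCTam, so its signal could not be told from background. The mean level of these 6 was 7.36 to 7.51 on the SUM44 arrays and 7.47 to 7.74 on the LCCTam arrays. This mean hides a wide range: albumin (ALB) was dim in both lines (5.04 and 5.05), and SERPINA1 was bright (11.67 and 12.15, not called).

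The genes whose profiles over the 6 arrays lay nearest to CBS were ASNS, CHAC1, STK32B, DDIT4 and PVALB. Nearness was the Euclidean distance between profiles centred on their own means, on the log2 scale, and it is a description over 6 arrays. ASNS, asparagine synthetase, was nearest at 0.46, with 8.57, 8.82 and 8.49 in SUM44 and 11.61, 11.45 and 11.88 in LCCTam. CHAC1, which degrades glutathione to release a cysteine-bearing dipeptide, followed at 0.55, with 7.40, 7.72 and 7.59 in SUM44 and 9.96, 9.89 and 10.74 in LCCTam. STK32B, a protein kinase, lay at 0.62, DDIT4, an inhibitor of mTOR signalling, at 0.66 and PVALB, a calcium-binding protein, at 0.79. All 5 were higher on every LCCTam array than on any SUM44 array, and their group means differed by 2.499 to 3.25. Both follow from choosing genes near CBS, which was itself selected on its difference between the groups, so they are no support. Over all genes the groups did not overlap for 35.4%.

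**Figure D3:**
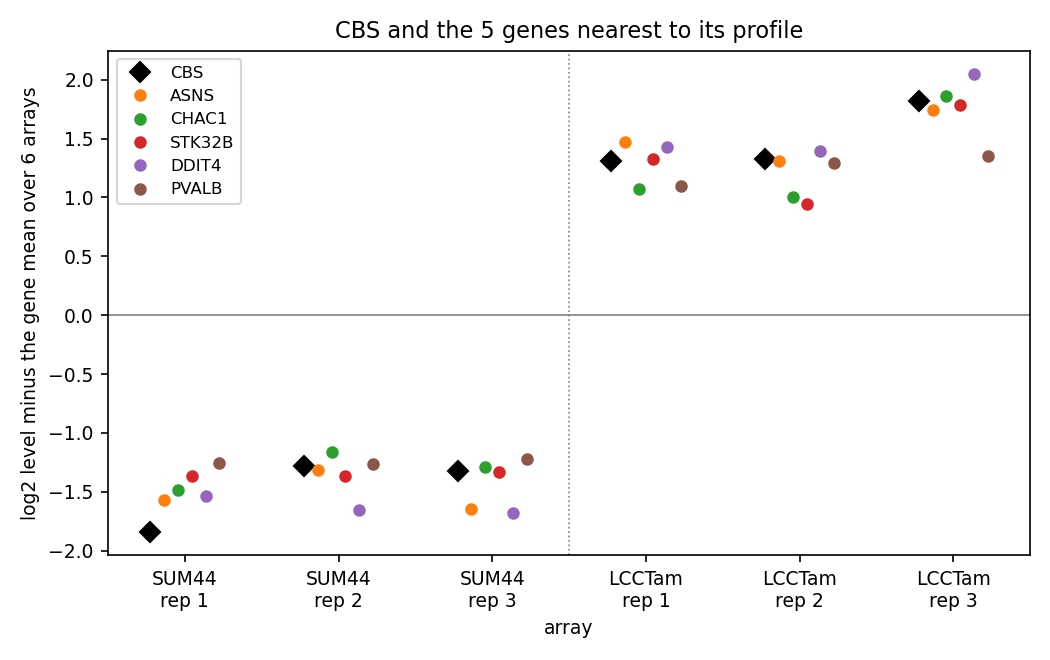
Levels of CBS and the 5 genes nearest to its profile on each of the 6 arrays, as log2 level minus the gene's mean over the arrays. Points of an array are set side by side for legibility. All 6 genes lie below 0 on the SUM44 arrays and above 0 on the LCCTam arrays, and PVALB has the smallest difference, 2.499.

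Genes of the amino acid response driven by ATF4, apart from the members, were higher where called. Of 23 measured, 16 rose, none fell and 7 were not called by limma, and 69.6% were called beside 15.8% of all genes. An unadjusted p under 0.05 was found for 18 of the 23, all higher, and for 3753 of all 11963 genes. The median difference was 0.90, beside 0.08 for all genes. ASNS rose by 3.02 ± 0.15 (adjusted p = 5.13e-05), PSPH, the last enzyme of serine synthesis, by 2.12 ± 0.11 (adjusted p = 6.79e-05) and DDIT4 by 3.25 ± 0.18 (adjusted p = 8.22e-05). PSPH supplies the serine that CBS condenses with homocysteine, and it read 5.78, 5.63 and 5.56 in SUM44 and 7.67, 7.91 and 7.75 in LCCTam. Its SUM44 level was under the lower quartile of gene means, so the size of its difference is not exact. PSAT1, the enzyme before it, differed by 0.01 ± 0.13. This list was drawn up with higher members already known from these arrays, so its direction is no independent evidence.

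Of the genes that use or supply cysteine, members moved both ways. Of 24 measured, 3 of which are also on the amino acid response list (CHAC1, SLC3A2 and SLC7A11), 7 rose, 4 fell and 13 were not called, with a median difference of 0.32, and 45.8% were called beside 15.8% of all genes. Some uptake and breakdown genes were among the higher, while SLC3A2 was not called (0.48 ± 0.16) and LAP3, a peptidase, was lower. SLC1A4, a carrier of neutral amino acids, read 9.39, 9.60 and 9.66 in SUM44 and 11.21, 11.16 and 11.22 in LCCTam and rose by 1.65 ± 0.11 (adjusted p = 0.000137). SLC7A11, the cystine carrier, rose by 1.73 ± 0.18 (adjusted p = 0.00121) and CHAC1 by 2.63 ± 0.23 (adjusted p = 0.000541). The dimmer SLC7A11 probe sets gave 0.98 and 0.65, high on LCCTam replicate 1 alone, and neither was called. Averaging the probe sets of SLC7A11 ended the call (adjusted p = 0.0735, range 9.81e-05 to 0.0735 over the alternatives).

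Both subunits of the ligase that starts glutathione synthesis were lower. GCLC, the catalytic subunit of glutamate-cysteine ligase, which joins cysteine to glutamate, read 10.73, 10.72 and 10.77 in SUM44 and 9.87, 9.26 and 9.10 in LCCTam. It fell by 1.33 ± 0.19 (adjusted p = 0.00459), and its other probe set also fell, by 1.11. GCLM, the regulatory subunit, read 11.46, 11.46 and 11.54 in SUM44 and 11.10, 10.77 and 11.05 in LCCTam and fell by 0.51 ± 0.12 (adjusted p = 0.026). GSS, which completes glutathione, differed by 0.30 ± 0.11 (adjusted p = 0.118), with no overlap between groups. In the direction from methionine to glutathione, CBS and CTH were thus higher and both subunits of the ligase lower in LCCTam.

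The other called genes of cysteine use were ETHE1, the mitochondrial dioxygenase of sulfide oxidation (0.90 ± 0.15), SUOX, sulfite oxidase (0.54 ± 0.12), SLC1A5, a glutamine carrier (1.06 ± 0.23), and GOT2, a mitochondrial aminotransferase (0.39 ± 0.11), all higher. LAP3, a leucine aminopeptidase (-0.98 ± 0.21), and PAPSS2, which makes activated sulfate (-0.94 ± 0.14), were lower. SQOR, the first enzyme of sulfide oxidation, differed by -0.02 ± 0.11 and CSAD, which makes hypotaurine, by 0.33 ± 0.17 at a dim level. GCLC, PAPSS2, ETHE1, SLC1A4 and CHAC1 kept their calls under every alternative. The count of called genes was 6 without SUM44 replicate 1, SUM44 replicate 2 or LCCTam replicate 2 and 7 without SUM44 replicate 3, with GCLM, SUOX, LAP3, SLC1A5 and GOT2 among those lost.

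Of the genes of polyamine synthesis and methionine salvage, which draw on SAM through AMD1 and return its methylthio group to methionine, 1 of 14 measured rose and 4 fell. The median was -0.31, and 35.7% were called beside 15.8% of all genes. SRM, spermidine synthase, read 9.05, 9.23 and 9.49 in SUM44 and 10.07, 10.29 and 10.61 in LCCTam and rose by 1.07 ± 0.17 (adjusted p = 0.0072). ODC1, which makes putrescine, fell by 0.78 ± 0.13 (adjusted p = 0.00742). AMD1, which decarboxylates SAM, read 8.79, 8.45 and 8.55 in SUM44 and 7.92, 7.29 and 7.18 in LCCTam and fell by 1.13 ± 0.21 (adjusted p = 0.011).

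SAT1, the acetyltransferase that starts polyamine breakdown, fell the most of the list, by 1.502 ± 0.12 (adjusted p = 0.000445), and its 2 other probe sets also fell. ADI1, a dioxygenase of the salvage route, fell by 1.23 ± 0.22 (adjusted p = 0.00992). MTAP, the first enzyme of salvage, differed by 0.17 at a level of 6.75 and 6.92 and was not called. The call of AMD1 was lost without SUM44 replicate 1, SUM44 replicate 3 or LCCTam replicate 2 (adjusted p from 0.000145 to 0.0591 over the alternatives), its other probe set gave -1.21 and was not called, and 9 genes of the list were called without LCCTam replicate 1.

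Of the methyltransferases that use SAM, 5 of 22 measured rose and 2 fell, with a median of 0.17 and 31.8% called beside 15.8% of all genes. The arginine methyltransferases PRMT1, PRMT2, PRMT7 and CARM1 and the glycine methyltransferase GNMT were the higher ones. PRMT1 read 9.87, 9.60 and 9.49 in SUM44 and 10.37, 10.69 and 11.11 in LCCTam and rose by 1.07 ± 0.20 (adjusted p = 0.0119). PRMT2 rose by 0.69 ± 0.12 (adjusted p = 0.00915), but only 1 of its 4 other probe sets was called, and averaging all 5 gave a difference of 0.25, not called (adjusted p = 0.0971, range 0.000954 to 0.0971 over the alternatives). PRMT5 was not called (-0.41 ± 0.13). CARM1 rose by 0.97 ± 0.21, PRMT7 by 0.66 ± 0.14 and GNMT by 0.65 ± 0.18.

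METTL3, the catalytic subunit of the writer of methyladenosine in messenger RNA, fell by 0.94 ± 0.12 (adjusted p = 0.00259), while its other probe set gave -0.09 and was not called. HNMT, histamine methyltransferase, read 8.33, 7.84 and 8.002 in SUM44 and 7.23, 5.65 and 4.42 in LCCTam, and fell by 2.29 ± 0.61 (adjusted p = 0.0434) with a wide spread within LCCTam, whose mean of 5.77 lies under the lower quartile of gene means. Of its 3 other probe sets 1 was called lower (-0.90) and the others gave -0.07 and 0.06, and the difference of HNMT was -0.80 when its probe sets were averaged and ranged from -3.02 without LCCTam replicate 1 to -1.62 without LCCTam replicate 3. The DNA methyltransferases DNMT1, DNMT3A and DNMT3B were not called (0.58, 0.02 and 0.33). Called methyltransferases numbered 3 without SUM44 replicate 1, 2 without SUM44 replicate 2 or 3, 1 without LCCTam replicate 2 and 12 without LCCTam replicate 1. Calls of PRMT1, PRMT2, PRMT7, CARM1, GNMT and HNMT were each lost under some of these, and that of METTL3 was not.

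The folate cycle hands its methyl group to MTR and draws on the same serine as CBS. Of 15 measured genes 2 rose by limma, both mitochondrial, and none fell, a share of 13.3% beside 15.8% of all genes, and the same 2 had an unadjusted p under 0.05. SHMT2, which takes a carbon from serine, read 10.60, 10.70 and 10.60 in SUM44 and 12.00, 12.10 and 12.74 in LCCTam and rose by 1.65 ± 0.19 (adjusted p = 0.00189). MTHFD2, the next enzyme, rose by 1.05 ± 0.14 (adjusted p = 0.00286). Their cytosolic counterparts SHMT1 and MTHFD1 were not called (0.11 and 0.17). Of other mitochondrial genes on the list, GLDC (-0.06, at a dim level) and AMT (0.19) were not called either. SHMT1 was dim, at 4.71 and 4.82, so its probe set cannot show that its level stayed the same.

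Of the genes of cobalamin uptake and handling, 1 of 10 measured fell and none rose by limma, a share of 10% beside 15.8% of all genes. An unadjusted p under 0.05 was found for 3 higher and 2 lower genes of the 10, and for 3753 of all 11963 genes. MMUT, the other human enzyme that depends on cobalamin, read 7.61, 7.31 and 7.86 in SUM44 and 7.21, 6.31 and 6.08 in LCCTam and fell by 1.06 ± 0.29 (adjusted p = 0.0472). MMACHC, which processes the vitamin on entry to the cell, differed by 0.43 ± 0.14 and its partner MMADHC by -0.80 ± 0.36, and neither was called. The call of MMUT was lost without any 1 SUM44 array, LCCTam replicate 2 or LCCTam replicate 3, and under 4 of the processing alternatives, in a range of adjusted p from 0.000388 to 0.171 over the alternatives, and its other probe set gave -0.73 and was not called. Without LCCTam replicate 1, 6 genes of the list were called.

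**Figure D4:**
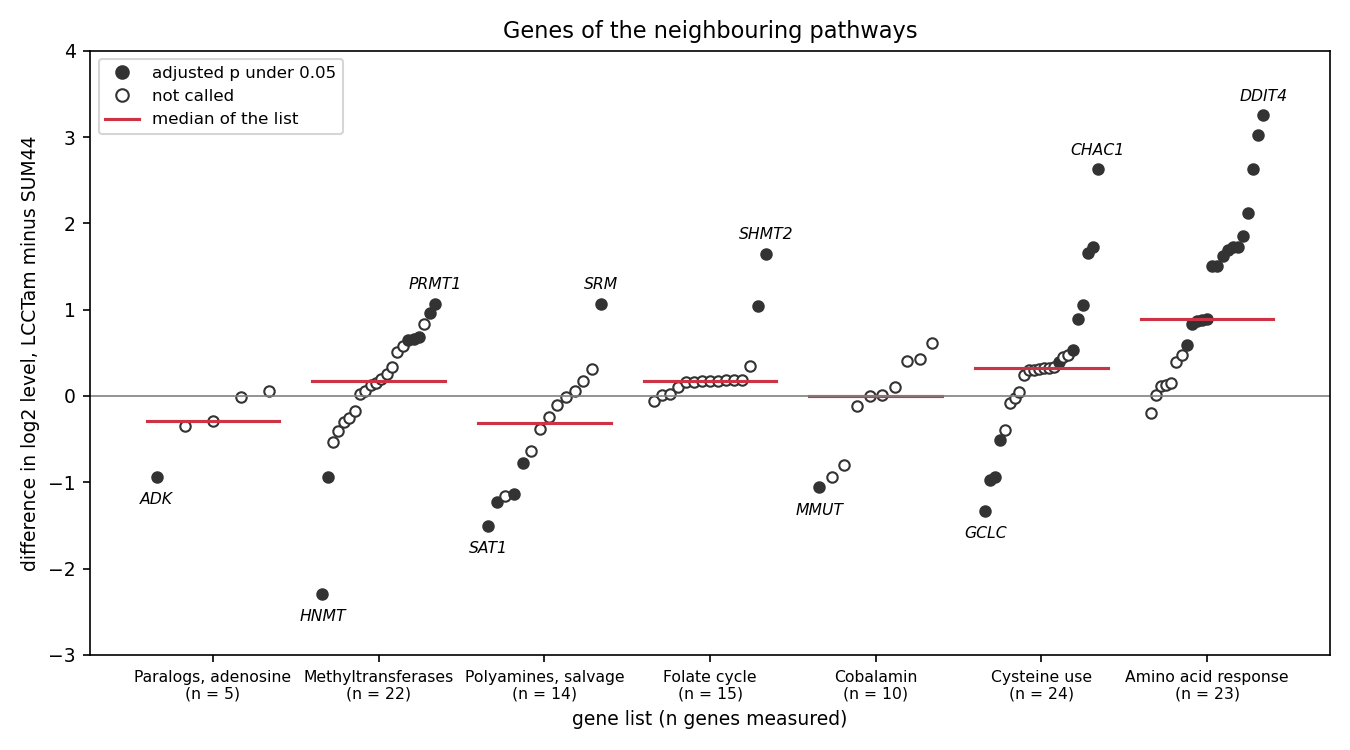
Difference in log2 level, LCCTam minus SUM44, for each measured gene of the 7 lists, sorted within a list, with called genes filled, other genes open and the list's median as a red bar. The amino acid response has the highest median, 0.90, the polyamine list the lowest, -0.31, and called genes of cysteine use lie on both sides of 0.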

How the data were processed

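RNA from 6 cultures was labelled with biotin and hybridised to Affymetrix arrays, per the labels' protocols. The deposited values are log2 levels that the authors made with RMA, as the design text of the series and the submitters' processing notes state, with a version not given in the sources used here. RMA equalises the distributions of the arrays, so a change in total RNA per cell would not be seen, and fewer cells and less RNA per cell cannot be told apart.

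Of 22283 probe sets, 68 controls were left out, 19065 were annotated to 1 gene, 1043 to several and 2107 to none. Symbols were updated by gene ID through the RefSeq table of GRCh38.p14 for 19053 probe sets. The build of the arrays' annotation was not given, so gene coordinates are not printed beside the promoter windows, which are RefSeq's own.

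The probe set with the highest mean stood for its gene. LCCTam was compared with SUM44 in limma 3.58.1 (lmFit, eBayes; R 4.3.3), two-sided, with Benjamini-Hochberg adjustment over 11963 genes. Further probe sets were fitted among all 22215. The fit was tested on simulated data. The genes, lists and tests were chosen with earlier results of these data known. The rule named all members, in each list the 3 called genes of lowest adjusted p, the paralogs and the 5 genes nearest to CBS. Further list genes were named after their values were seen. Some listed genes are not reported here. The labels call the cultures biological replicates without saying how they were separated, so p-values rest on the spread among them.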

Additional observations from a re-analysis of the deposited data

How the results depend on the processing

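Alternatives were 8 of processing or model, each changing 1 choice except that an intensity trend and robust fitting were set together, and each of the 6 arrays left out. CBS, CTH and AHCY had the same direction and call under every alternative that tested them, which is a description and no support, since the list was built around CBS. With all probe sets as units 3002 were called, 1677 higher and 1325 lower. The mean of its probe sets gave CTH 1.29, and cyclic loess turned the difference of MAT1A, not called either way, to -0.063. The filter on genes above the median mean left 4 of the members, of which 3 were called, and the filter at a level of 6 left 8. The count of called cobalamin genes was 0 with probe sets as units, the trend and robust fitting together, cyclic loess or centred medians. The filter above the median also gave 0, but it left MMUT out untested. For paralogs and adenosine genes the count was 0 with cyclic loess or centred medians.

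With the replicate number as a block, 2152 genes were called (1137 higher and 1015 lower), with 5 members and 2 cobalamin genes. Deviations of same-numbered arrays correlated at 0.49, 0.35 and -0.05, and not every array correlated best with its own number. With 3 arrays per group these values cannot settle whether the numbers pair the cultures. The main fit treated the arrays as unpaired.

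With each array left out in turn, called genes numbered 751 to 4241 (430 to 2237 higher, 303 to 2004 lower), members 3 to 6, polyamine genes 4 to 9, methyltransferases 1 to 12, cobalamin genes 0 to 6, cysteine genes 6 to 16 and paralogs and adenosine genes 0 to 2. The highest counts came without LCCTam replicate 1. Differences ranged from 0.77 to 1.06 for AHCY, 0.71 to 0.99 for MAT2A, -1.39 to -0.84 for MTRR, -0.51 to -0.09 for MTR and 0.02 to 0.27 for BHMT. Of 36 named list genes none changed sign while called, and 15 lost their call under at least 1 alternative. The causes were not tested. Dim signal limits CBS, CTH, PSPH and TAT in SUM44, HNMT and MTR in LCCTam, and CDO1, BHMT2, SHMT1, CSAD, ADA and GLDC in both lines. Neither MAT1A nor BHMT, which read under the leukocyte marker CD3D in both lines, could be told from background.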
